A study of Homo sapiens with 6 samples.

Results

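The genes described here were the core of the Hippo pathway and the TEAD transcription factors. They were taken as the probe sets whose annotation named 1 gene only, that gene being YAP1, WWTR1, TEAD1, TEAD2, TEAD3, TEAD4, LATS1, LATS2, NF2 or AMOT. Each of the 10 genes had 1 such probe set, among 19311 probe sets of the array that named 1 gene. All 10 were tested, and none lay among the 30% of tested probe sets with the lowest mean signal.

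The samples were total RNA of HEK293 cells, an established line from human embryonic kidney transformed with adenovirus DNA. The HEK-BAHD1 line carried 1 inserted copy of the cDNA of BAHD1, a heterochromatin factor, driven by the cytomegalovirus promoter and, according to the supplement of the study, with an N-terminal His-Protein C tag. The control line HEK-CT carried a β-galactosidase insert placed out of frame according to the sample labels, and the empty vector according to the methods of the study. Both lines were made in cells with 1 Flp-In integration site, kept in hygromycin, and each was a stable pool of transfectants rather than a clone. There were 3 arrays per line, from cultures grown in separate flasks, so p-values set the lines' difference against the spread between cultures of the same pool. Each line was 1 pool, so a difference between the pools and an effect of the insert cannot be told apart. The passage of the third HEK-BAHD1 culture is not stated in the methods of the study, and the second was taken at a later passage than the first and HEK-CT.

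In the Hippo pathway, the kinases LATS1 and LATS2 phosphorylate the coactivators YAP1 and TAZ (encoded by WWTR1), which are then held in the cytoplasm or degraded. Unphosphorylated YAP1 and TAZ enter the nucleus and bind the TEAD factors, which contact DNA and without which the coactivators have little access to their targets. NF2 encodes merlin, which recruits the LATS kinases to the membrane, and AMOT encodes angiomotin, which binds YAP1 and TAZ at junctions and actin. Much of this control acts on the proteins, by phosphorylation and location, and the arrays measured RNA alone.

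BAHD1 itself ran against the labels. Its log2 signal was between 9.81 and 10.06 on the 3 arrays labelled HEK-CT and between 6.75 and 7.0 on the 3 labelled HEK-BAHD1 (change of -3.10 in log2 signal, with a limma adjusted p of 3.12e-05). Every direction below is that of the labels as deposited, and all would turn if the labels were exchanged. The study also measured BAHD1 RNA and protein in these lines by assays other than arrays, and there HEK-BAHD1 is the line with more of both; those data were not analysed here, and the cause of the difference was not tested. For AMOT, and for LRCH2 and IRS4, which are named below, the direction given here is opposite to the one in which the study lists the gene. HEK293 markers differed in level. The keratins KRT8 and KRT18 and the filament gene VIM lay at log2 signals between 10.52 and 11.69 on the 6 arrays. LHX1 lay between 5.65 and 5.85 and PAX2 between 5.60 and 5.98, near the array medians of 5.46 to 5.56. NEFM alone of the 8 markers was among the dimmest 30%. Of these 8, 3 (IRS4, NEFM and NEFL) were called higher and 1 (VIM) lower. The mean log2 signal of the 8 was between 8.73 and 8.78 on HEK-CT and between 8.93 and 8.96 on HEK-BAHD1. Of 4 endothelial and 4 haematopoietic markers measured, 7 were among the dimmest 30%, none was called by limma and 0 passed an unadjusted p under 0.05. The mean log2 signal of the 8 fibroblast markers was between 4.73 and 4.75 on HEK-CT and between 4.68 and 4.70 on HEK-BAHD1, with 5 of the 8 among the dimmest 30% and COL3A1 called lower. The part of such differences in the results below was not tested. Fewer cells with a transcript and less transcript per cell cannot be told apart in these RNA pools.

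A gene was called at an adjusted p under 0.05 over the 21062 tested probe sets and a difference of group medians above 0.2, both on log2 values. Among the 10 genes, AMOT and TEAD2 were called higher in HEK-BAHD1, TEAD1 was called lower, and the other 7 were not called. The background over all that was tested was 13.2% called, with 6.79% higher and 6.39% lower. The median log2 fold change was -0.0033 over the 10 genes and 0.0033 over all tested probe sets. The 3 arrays of one label did not overlap with those of the other for 6 of the 10 genes, against 33.6% of all tested probe sets. With so few genes, these shares describe the list only. With the arrays centred on their medians, 1052 probe sets were called higher and 1823 lower (36.6% higher), against 1430 and 1345 (51.5% higher) as deposited. The calls of the 10 genes were the same under both scalings.

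**Figure D1:**
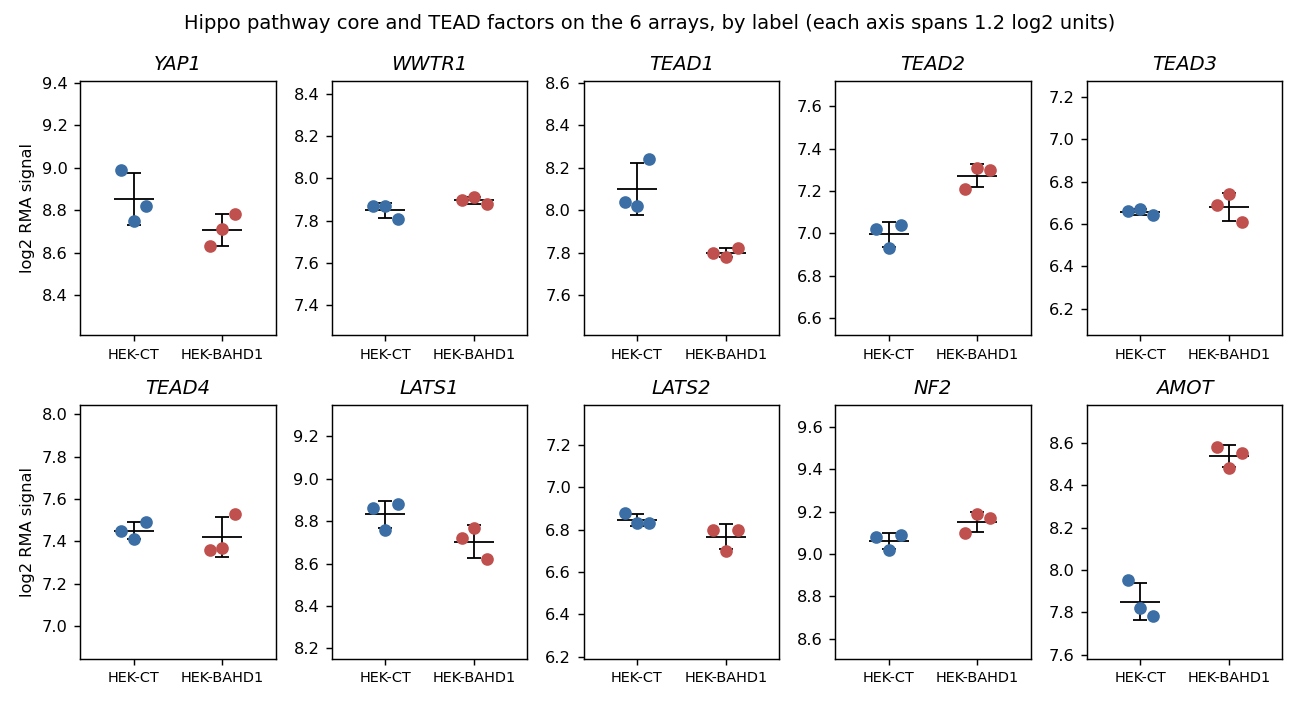
Log2 RMA signal (vertical axes, each spanning 1.2 units) of the 10 genes on the 6 arrays, with dots for single arrays and a line and error bar for the mean ± SD (n = 3) of a label. The HEK-BAHD1 arrays lay above all those labelled HEK-CT for AMOT and TEAD2 and below them for TEAD1. By narrow margins they also lay above for NF2 and WWTR1 and below for LATS2, which were not called.

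AMOT, the junction and actin scaffold, had the largest difference of the 10. The 3 HEK-CT arrays, in the order of their replicate numbers here and below, gave log2 signals of 7.95, 7.82 and 7.78, and the 3 HEK-BAHD1 arrays gave 8.58, 8.48 and 8.55. The lowest HEK-BAHD1 array thus lay above the highest HEK-CT array, and the spread within each label was small beside the gap between them. The log2 fold change was 0.69 (standard error 0.065, 95% interval 0.54 to 0.84, limma adjusted p = 0.00132, with 3 arrays a line), a ratio of 1.61. Only 1.09% of tested probe sets had a larger difference in either direction. The call held under all 16 alternatives, with values between 0.65 and 0.74. AMOT is on the X chromosome and belongs to the genes that the study picked from these same arrays, so its change is not independent evidence of direction.

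NF2, which encodes the membrane scaffold merlin, was not called. Its log2 signal was 9.08, 9.02 and 9.09 on HEK-CT and 9.10, 9.19 and 9.17 on HEK-BAHD1. The labels did not overlap, although the highest HEK-CT and the lowest HEK-BAHD1 array were almost level. The log2 fold change was 0.09 (95% interval -0.037 to 0.22, adjusted p = 0.327 from limma).

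LATS1 and LATS2, the kinases that act on YAP1 and TAZ, were both lower in mean on HEK-BAHD1 without passing the test. LATS1 had log2 signals of 8.86, 8.76 and 8.88 on HEK-CT and 8.72, 8.77 and 8.62 on HEK-BAHD1. Here replicate 2 of HEK-BAHD1 lay just above replicate 2 of HEK-CT, so that the labels overlapped. Its log2 fold change was -0.13 (95% interval -0.28 to 0.018, adjusted p = 0.225 from limma). LATS2, itself a known target of YAP1 and TEAD, had log2 signals of 6.88, 6.83 and 6.83 on HEK-CT and 6.80, 6.70 and 6.80 on HEK-BAHD1. The labels were apart by a narrow margin, with a log2 fold change of -0.08 (95% interval -0.21 to 0.049, adjusted p = 0.392 from limma).

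The coactivators did not pass the test either. YAP1 had log2 signals of 8.99, 8.75 and 8.82 on HEK-CT and 8.63, 8.71 and 8.78 on HEK-BAHD1, and the labels overlapped because the third HEK-BAHD1 array lay above the second HEK-CT array. Its log2 fold change was -0.15 (95% interval -0.33 to 0.033, adjusted p = 0.258 from limma). WWTR1 had log2 signals of 7.87, 7.87 and 7.81 on HEK-CT and 7.90, 7.91 and 7.88 on HEK-BAHD1. The labels did not overlap, but the 6 values spanned 0.1 in all, the narrowest span of the 10 genes, and the log2 fold change was 0.047 (95% interval -0.071 to 0.16, adjusted p = 0.601 from limma). Over the 7 genes not called, the 95% intervals, with the arrays scaled as deposited, lay between -0.33 and 0.22 on the log2 scale. Each interval was taken alone and they do not hold for the 7 genes at once. A gene not called may still have changed.

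**Figure D2:**
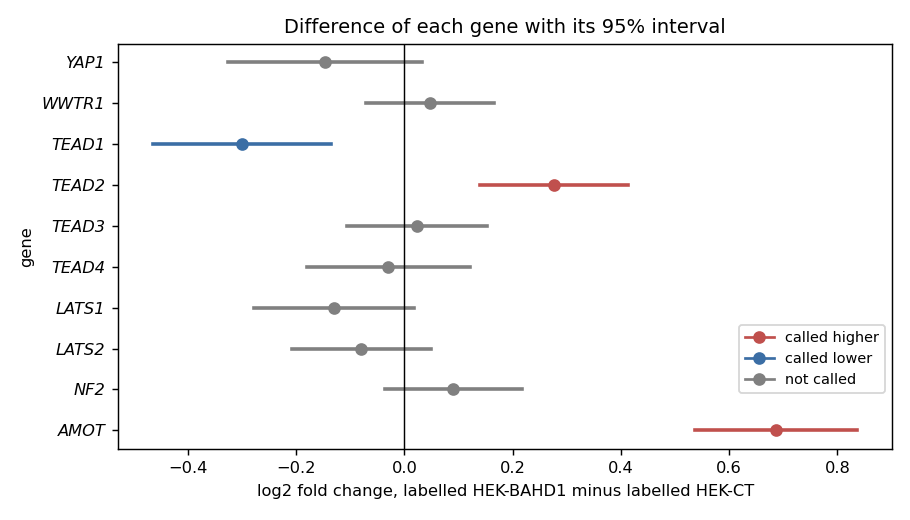
Log2 fold change (horizontal axis, HEK-BAHD1 less HEK-CT by label) of the 10 genes with its 95% interval from limma, n = 3 arrays per line; colours mark the calls. AMOT at 0.69 and TEAD2 at 0.28 lay above 0 with their whole intervals, TEAD1 at -0.30 below it, and the other 7 intervals contained 0.

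The TEAD factors are 4 paralogs that bind the same DNA motif. TEAD1 had log2 signals of 8.04, 8.02 and 8.24 on HEK-CT and 7.80, 7.78 and 7.82 on HEK-BAHD1. All HEK-BAHD1 arrays were below all HEK-CT arrays, and the third HEK-CT array stood above the other two of its label. The log2 fold change was -0.30 (standard error 0.071, 95% interval -0.46 to -0.14, adjusted p = 0.0317 from limma).
TEAD2 ran the other way, with log2 signals of 7.02, 6.93 and 7.04 on HEK-CT and 7.21, 7.31 and 7.30 on HEK-BAHD1. Its labels did not overlap, and its log2 fold change was 0.28 (standard error 0.059, 95% interval 0.14 to 0.41, adjusted p = 0.0228 from limma).
TEAD3 had log2 signals of 6.66, 6.67 and 6.64 on HEK-CT and 6.69, 6.74 and 6.61 on HEK-BAHD1, and its log2 fold change was 0.023 (95% interval -0.11 to 0.15, adjusted p = 0.828 from limma). TEAD4 had log2 signals of 7.45, 7.41 and 7.49 on HEK-CT and 7.36, 7.37 and 7.53 on HEK-BAHD1, and its log2 fold change was -0.03 (95% interval -0.18 to 0.12, adjusted p = 0.807 from limma). For both genes the labels overlapped.
The calls of TEAD1 and TEAD2 lay near the threshold. TEAD1 was called without HEK-CT replicate 2 (adjusted p = 0.0461) and lost without any other array, HEK-CT replicate 1 or 3 (adjusted p = 0.0561 and 0.0796) or HEK-BAHD1 replicate 1, 2 or 3 (0.0831, 0.085 and 0.0769). TEAD2 was called without HEK-BAHD1 replicate 1 (adjusted p = 0.040) and lost without HEK-CT replicate 1, 2 or 3 (0.0559, 0.067 and 0.0558) or HEK-BAHD1 replicate 2 or 3 (0.0675 and 0.0681). With the LPE test, which pools the error of genes of like signal and is named in the methods of the study, the adjusted p was 0.0591 for TEAD1 and 0.0574 for TEAD2.

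The difference of log2 signal between paralogs on the same array does not depend on a constant shift of that array, and its change shows how unequally a pair moved. The change could be compared between labels, but the size of the difference itself could not, since it mixes the brightness of different probes. For 5 of the 6 pairs of TEAD genes the labels did not overlap. Each of the 5 held TEAD1 or TEAD2, whose labels were already apart when taken alone, so the count largely restates those genes. The share among other pairs of probe sets was not computed. TEAD1 minus TEAD2 was 1.02, 1.09 and 1.2 on HEK-CT and 0.59, 0.47 and 0.52 on HEK-BAHD1, a change of -0.58. Every array labelled HEK-BAHD1 thus lay below every array labelled HEK-CT by at least 0.43. The changes were -0.32 for TEAD1 minus TEAD3, -0.27 for TEAD1 minus TEAD4, 0.25 for TEAD2 minus TEAD3 and 0.31 for TEAD2 minus TEAD4. TEAD3 minus TEAD4 changed by 0.053, YAP1 minus WWTR1 by -0.19 and LATS1 minus LATS2 by -0.05, and in these 3 pairs the labels overlapped. An exact permutation test (two-sided, n = 3 against 3) gave p = 0.1 for the 5 separated TEAD pairs, the smallest that the design allows, and p = 0.2, 0.6 and 0.7 for YAP1 with WWTR1, LATS1 with LATS2 and TEAD3 with TEAD4. After Benjamini-Hochberg over the 8 pairs the exact p was 0.16 for the 5 pairs, so none passed, and none could have. The pairs share genes and are not independent of one another.

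**Figure D3:**
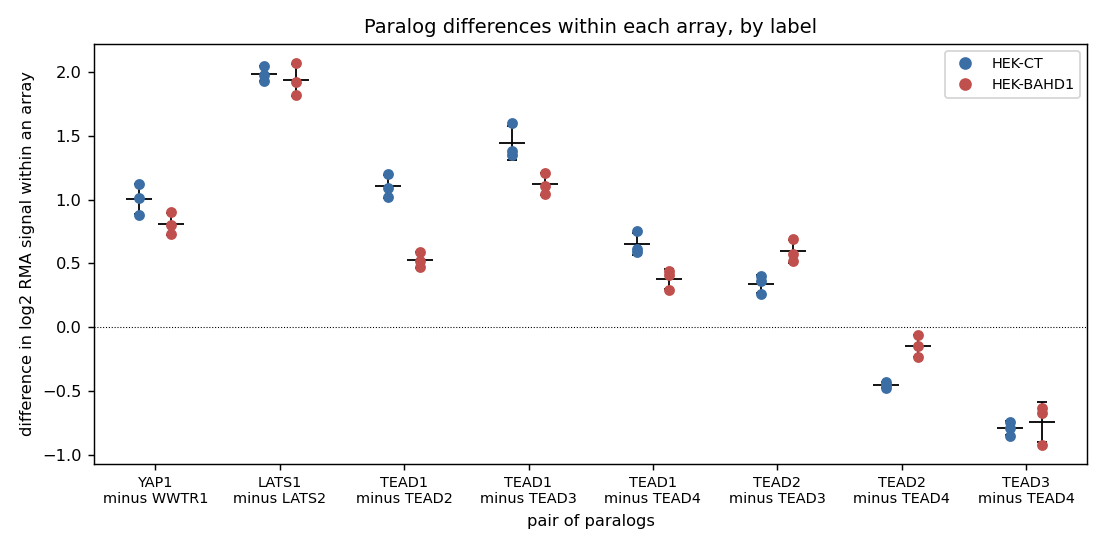
Difference in log2 RMA signal between paralogs on the same array (vertical axis) for 8 pairs (horizontal axis), with dots for single arrays and a line and error bar for the mean ± SD (n = 3) of a label. The labels are furthest apart for TEAD1 minus TEAD2, at 1.10 on HEK-CT and 0.53 on HEK-BAHD1 in mean.

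The genes around these loci were taken from the gene order of GRCh38, 5 measured genes on each side. Of the 10 neighbours of AMOT, LRCH2 was called higher, none was called lower, and their median log2 fold change was 0.017. On the X chromosome, 70 of 694 genes were called higher and 42 lower. The study, with another test, reports more X genes down-regulated than up-regulated in HEK-BAHD1, the opposite balance to that of the labels here. TEAD1 had 3 neighbours called higher (GALNT18, MICAL2 and SPON1) and 1 called lower (PARVA), with a median of 0.06. On its chromosome 11, 66 of 1230 genes were called higher and 52 lower. TEAD2 had 1 called higher, TRPM4, with a median of 0 on chromosome 19, where 61 of 1306 genes were called higher and 143 lower. The neighbours of YAP1, WWTR1, TEAD3 and LATS1 had no call, with log2 fold changes between -0.30 and 0.38. At TEAD4 the cyclin gene CCND2 was called higher, at NF2 the gene NIPSNAP1, and at LATS2 the genes SAP18 and SKA3 were called lower.

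The rest of the pathway was described by 6 lists with 97 genes, of which 91 had a probe set of their own. Of the 91, 6 were called higher, 13 lower and 72 neither, with a median log2 fold change of -0.017. The share called was 20.9%, against 13.2% of all tested probe sets. By list it was 38.1% for the targets, 27.6% for the upstream and junction regulators and 25% for the VGLL cofactors. It was 14.3% for the inhibitors of the kinases, 6.67% for the core kinase cassette and 0% for retention and turnover. The lists were chosen with earlier results of these data known, so these shares describe the lists only. Counts at an unadjusted p under 0.05 and by the LPE test are given below where limma called no gene of a list in a direction. Over all tested probe sets, 14.5% were higher and 14.8% lower at the unadjusted p, and 6.19% were higher and 7.29% lower by LPE.

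In the core kinase cassette, 1 of 15 genes was called higher and none lower, with a median of -0.023. It was MINK1, a kinase of the MAP4K family that can phosphorylate LATS, with a log2 fold change of 0.29 (adjusted p = 0.0221 from limma), a call lost by the LPE test (adjusted p = 0.126) and on leaving out replicate 2 or 3 of HEK-CT or replicate 1 or 3 of HEK-BAHD1. STK3 and STK4, the MST kinases that activate LATS, were at -0.023 and 0.047, and their scaffold SAV1 was at -0.12, none of them called. At an unadjusted p under 0.05, 1 gene of this list was higher and 3 were lower, while LPE called 0 higher and 1 lower.
Of 29 upstream and junction regulators, 4 were called higher and 4 lower (27.6% called), with a median of 0.03. Of these, 2 were lower on leaving out replicate 2 or 3 of HEK-CT or replicate 1 or 3 of HEK-BAHD1, with the replicate block, and with unnamed probe sets tested too. The atypical cadherin FAT4 had log2 signals of 6.47, 6.42 and 6.56 on HEK-CT and 5.53, 5.81 and 5.50 on HEK-BAHD1, a log2 fold change of -0.87. The epithelial cadherin CDH1 ran the other way with 5.37, 5.35 and 5.38 against 6.10, 6.05 and 6.10, a log2 fold change of 0.72. RASSF2, a partner of the MST kinases, was at 0.60. Beside AMOTL2, described next, the other called genes of the list were between 0.35 and 0.45 where higher and between -0.35 and -0.24 where lower.
The angiomotin family was split. AMOT was called higher, AMOTL1 had a log2 fold change of 0.00 and was not called, and AMOTL2 was called lower, with log2 signals of 6.34, 6.48 and 6.61 on HEK-CT and 5.56, 5.68 and 5.75 on HEK-BAHD1 (a difference of -0.81, with a limma adjusted p of 0.0018). AMOTL2 also belongs to the list of targets below.

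Of 14 genes whose products restrain the kinases, 2 were called lower and none higher, with a median of -0.037. These are 14.3% called, near the 13.2% of all tested probe sets. AJUBA, a LIM protein that binds LATS, was at -0.44 (lost without HEK-CT replicate 1 or 3, adjusted p at most 0.0626), and STRN3, a subunit of the STRIPAK phosphatase complex, at -0.33. At an unadjusted p under 0.05, 0 genes of this list were higher and 6 lower, while LPE called 0 higher and 3 lower. Of 10 genes for the retention and turnover of YAP1 and TAZ, among them the 14-3-3 proteins, limma called none higher or lower, and at an unadjusted p under 0.05 1 was higher and none lower, while the LPE test called 1 higher. The 6 YWHA genes of this list, which encode 14-3-3 proteins, were between -0.057 and 0.0067. The other 14-3-3 gene, SFN, had log2 signals of 6.28, 6.43 and 6.26 on HEK-CT and 6.44, 6.67 and 6.73 on HEK-BAHD1, a difference of 0.29 with labels that did not overlap (adjusted p = 0.0718 from limma). It was the gene called by LPE (adjusted p = 0.0155), and limma called it without HEK-BAHD1 replicate 1 (0.0356), without the dimmest 30% (0.0433) and with an intensity trend and robust variance (0.0441). Of 4 VGLL cofactors, which compete for the TEAD surface that YAP1 and TAZ use, VGLL3 was called higher. Its log2 signal was 6.06, 6.40 and 6.19 on HEK-CT and 6.85, 6.93 and 6.72 on HEK-BAHD1, a log2 fold change of 0.62 (adjusted p = 0.00819 from limma). None of the 4 was called lower, with 1 lower at an unadjusted p under 0.05 and 0 by the LPE test.

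Of 21 known targets of YAP1, TAZ and TEAD, 8 were called lower (38.1%) and none higher, with a median of -0.12. Over all tested probe sets, 6.39% were called lower. The list was chosen with earlier results of these data known. Leaving out replicate 2 of HEK-CT or replicate 3 of HEK-BAHD1 left 5 lower, and quantile normalization of the arrays once more added 1 higher. ANKRD1, a nuclear cofactor of muscle, had log2 signals of 10.67, 10.94 and 10.92 on HEK-CT and 8.35, 8.45 and 8.34 on HEK-BAHD1, a log2 fold change of -2.46. CCN2 and CCN1, secreted proteins of the matrix, stood at -1.61 and -1.31. The other 4 called targets beside AMOTL2 were between -0.63 and -0.35. At an unadjusted p under 0.05, 2 targets were higher and 9 lower, while LPE called 0 higher and 8 lower. The 13 targets not called had log2 fold changes between -0.28 and 0.23, so the falls were those of part of the list. LATS2, a target among the 10 genes, was counted apart at -0.08.

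**Figure D4:**
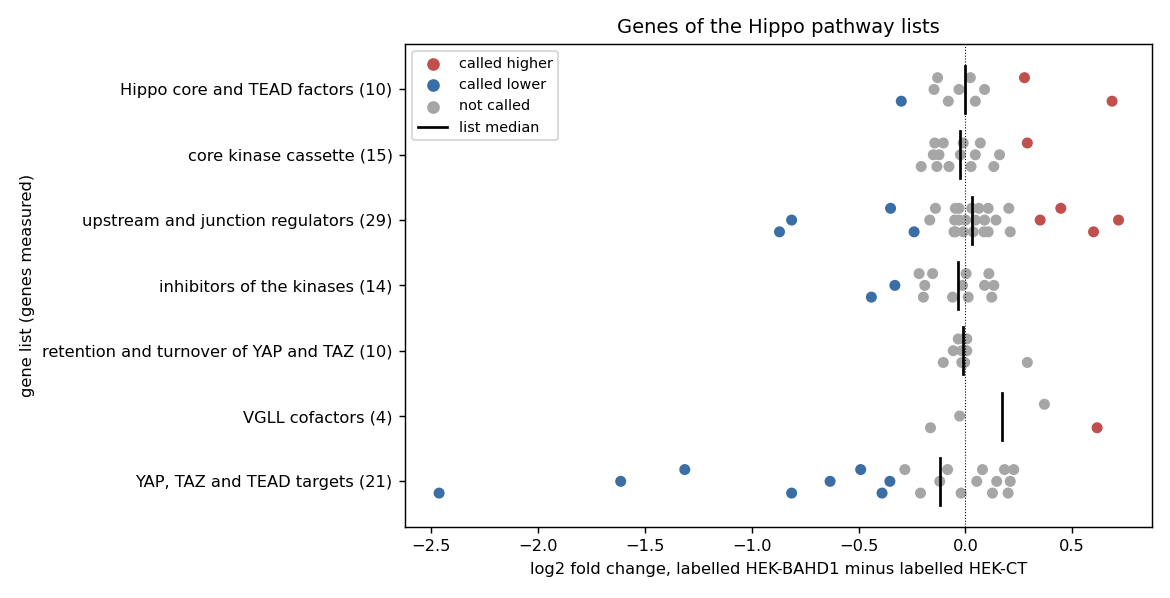
Log2 fold change (horizontal axis, HEK-BAHD1 less HEK-CT by label) of each measured gene, by list (vertical axis, number of genes in brackets); red and blue points were called higher and lower, grey points were not called, and black lines are list medians. The targets reach -2.46 (ANKRD1), while the 10 core genes lie between -0.30 and 0.69.

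TEAD factors bind the motif GGAATG. It was looked for on both strands in RefSeq promoters of GRCh38.p14, taken as 250 bases before to 50 after a start site. The promoters of these genes were set beside those of the whole list of targets, called or not. Promoters were at hand for 8 of the 10 genes, all but TEAD1 and TEAD4, and 2 of their 12 promoters held the motif (16.7%), against 14% of all 35116 promoters. Of the 17 promoters matched to 15 targets, 8 held it (47.1%), and these promoters were not split by the call of the gene. The list was made of known targets, chosen with earlier results of these data known. A higher share than that of all promoters is therefore a description of the list and not a test. The matches of YAP1 and LATS2, which were not called, are shown with 1 match each of ANKRD1 and CCN2, which fell, with the motif in capitals and read along the gene.
YAP1: gggagtgtgcaGGAATGtagcaacttgc
LATS2: gtgacgcccgtGGAATGccaacaatgta
ANKRD1: acactgagtctGGAATGaaaattcacct
CCN2: tttcagacggaGGAATGctgagtgtcaa
These lie in GRCh38.p14 at chr11:102110274-102110301 on the plus strand for YAP1 and, on the minus strand, at chr13:21061561-21061588 for LATS2, chr10:90921199-90921226 for ANKRD1 and chr6:131951525-131951552 for CCN2. The first base of the motif was at -162 from the start site in YAP1, at 10 within the transcript in LATS2, at -128 in ANKRD1 and at -169 in CCN2. The ANKRD1 promoter held 2 such matches and that of CCN2 3, while YAP1 and LATS2 held 1 each. Matches of other targets are not shown, and the number of matches was not compared with the calls. No match was found in the promoters of AMOT, NF2, LATS1, TEAD2, TEAD3 or WWTR1, which says only that these letters are not in those windows. A match is a description of letters, and binding was not measured.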

How the data were processed

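RNA of 6 cultures was hybridised by the authors to Affymetrix HuGene 1.0 ST arrays. The deposited values are log2 signals that the authors derived from probe intensities with RMA (named in the submitters' processing notes). Its version and the genome build of the annotation were not given in the sources used here. In RMA the background is corrected, arrays are brought to a common distribution and probes are combined per gene, so isoforms cannot be told apart, and array medians still lay between 5.46 and 5.56. The paper gives another series number for its arrays, and the lines and replicates in the labels were taken to be the same experiment.

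Of 28869 probe sets, the 21062 naming a gene were tested across all genes with limma 3.58.1 in R 4.3.3, labelled HEK-BAHD1 minus labelled HEK-CT, with the Benjamini-Hochberg adjustment. Symbols were matched through gene identifiers to RefSeq. A gene with several probe sets was represented by that with the highest mean. The LPE test was written anew from its description, with 100 bins and 10 degrees of freedom. Both tests were run on simulated data with independent noise and with shifts larger than those of TEAD1 and TEAD2. The outcome is not given here, so that run says nothing on changes of their size. The genes and lists were chosen with earlier results of these data known. Named beside the 10 genes were up to 4 called genes of each list with the largest differences, and genes that made up small counts or were singled out after their values were seen. Alternatives were other tests, scalings, filters, variance models, thresholds, a block for the replicate number and, in turn, the loss of each array. Protein sequences were not used here.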

Additional observations from a re-analysis of the deposited data

How the results depend on the processing

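AMOT and the 7 genes not called kept their call under all 16 alternatives, whereas TEAD1 and TEAD2 did not. With 1 array left out, between 1 and 2 of the 10 genes were called higher and between 0 and 1 lower. Over all probe sets, between 806 and 938 were higher and between 581 and 937 lower, depending on the array left out. Of the 91 other pathway genes, between 5 and 6 were then higher and between 8 and 10 lower (8 when replicate 2 or 3 of HEK-CT or replicate 3 of HEK-BAHD1 was left out). Under the LPE test 1 of the 10 genes was higher and 0 lower. With unnamed probe sets tested too, 0 were lower (TEAD1 adjusted p = 0.0523). With a log2 fold change above 0.5 required, 1 of the 10 was higher and 0 lower, 3 and 6 pathway genes, and 316 and 230 probe sets over all. No pairing by replicate number was seen. Deviations from the label means correlated at -0.077, 0.074 and -0.038 between arrays of the same number, and between -0.136 and 0.176 for different numbers. With 3 arrays per label, this check cannot show that the cultures were unpaired. With the replicate block 1 of the 10 genes was higher and 0 lower (TEAD1 adjusted p = 0.0527, TEAD2 0.0612), and over all probe sets 962 were higher and 829 lower. The cause of these losses was not tested. Of the 11 pathway genes named by their rule, 8 kept their call under every alternative; MINK1, AJUBA and STRN3 did not. Each of the 10 genes had 1 probe set, so another could not be tried. With 3 arrays per label, the number of arrays limits the precision.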
